A study of Mus musculus with 12 samples.

Results

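The 9 genes *Aqp4*, *Gfap*, *Aldoc*, *Atp1b2*, *Gja1*, *Clu*, *Sparcl1*, *Cpe* and *Mt1*, which are used as astrocyte markers, were taken by symbol from the 47643 genes of the bulk count table. All 9 had counts, and 8 of them passed the minimum count for testing, with *Gfap* below it. The RNA came from sorted brain cells of 5 male p16-3MR mice on a C57BL/6 background, which were 113, 115, 116, 116 and 116 weeks old (mice 1 to 5). In this line the p16 promoter drives a red fluorescent protein joined to a luciferase and a truncated viral thymidine kinase, and both sorted populations carried the transgene. Each mouse gave 1 sample of viable cells with low fluorescence (RFPneg, the RFPLow cells of the study) and 1 sample with high fluorescence (RFPpos, the RFPHigh cells), so that there were 5 pairs. Viable cells were gated as DAPI negative and Draq5 positive after a Percoll step that removes myelin. The methods name no surface marker for this sort, and each sample was a mixture of brain cell types. The single-cell samples of the series were not analysed here.

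Astrocytes are glial cells that take up water, potassium and glutamate, wrap blood vessels with their endfeet and supply neurons with lactate. *Aqp4*, *Gfap*, *Aldoc*, *Atp1b2* and *Gja1* are mostly confined to astrocytes among the cells of the brain parenchyma and are called the restricted members here. *Clu*, *Sparcl1*, *Cpe* and *Mt1* are abundant in astrocytes but are also expressed by neurons, endothelial cells or other glia, and are called the shared members. The comparison asked whether astrocyte transcripts differ between cells with high and low p16 reporter signal from the same brain. In such mixtures, fewer astrocytes and less RNA per astrocyte cannot be told apart.

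The samples held between 177287 and 415834 counts on genes, and 1 count was worth 5.64 counts per 1000000 counts on genes (CPM) in the smallest library and 2.40 CPM in the largest. The libraries were made from the 3′ ends of transcripts, so that a transcript gives about 1 tag whatever its length. Of 4210 tested genes, 627 were called (14.9%) and 916 had an adjusted p under 0.05 (21.8%). Those called comprised 242 that were higher (5.75%) and 385 that were lower (9.14%) in RFPpos cells. Reads on no gene took 32.1% to 37.2% of the counts in RFPneg and 38.4% to 48.6% in RFPpos samples, so that the groups did not overlap. When these reads were added to the library sizes, 149 were higher and 466 lower, and the median log2 fold change of all tested genes was −0.18 in place of −0.03. A gene was called at a Benjamini-Hochberg adjusted p under 0.05 in edgeR's quasi-likelihood test, with the mouse as a block, and an absolute log2 fold change above 1. A list of 20 microglia genes took 3.26% to 4.28% of the counts in RFPpos samples and 1.47% to 2.26% in RFPneg samples. The RFPpos sample of mouse 1 stood apart from the other RFPpos samples in astrocyte transcripts, so results are also given without mouse 1.

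Only *Clu* of the 8 tested members was called, and it was lower in RFPpos cells. *Mt1* also fell, with an adjusted p under 0.05 but a log2 fold change smaller than 1. The other 6 tested members and *Gfap* did not pass the test. In all, 2 of 8 tested members were lower at an adjusted p under 0.05, beside 11.6% of all tested genes, and 1 of 8 was called lower, beside 9.14%. Among the 12270 genes with at least 10 counts, where all 9 members were tested, 9.54% of genes were called. There 1 member was called lower (beside 6.75%) and 0 higher (beside 2.80%). At the adjusted p alone, *Clu*, *Mt1*, *Gja1* and *Sparcl1* were lower in that fit (4 of 9, beside 7.49%) and 0 were higher (beside 4.27%). In RFPpos cells of mouse 1, 8 of the 9 members had their lowest level of all 10 samples. Without mouse 1, no member was called, while *Clu* and *Mt1* kept adjusted p-values of 0.00782 and 0.0104 (edgeR).

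**Figure D1:**
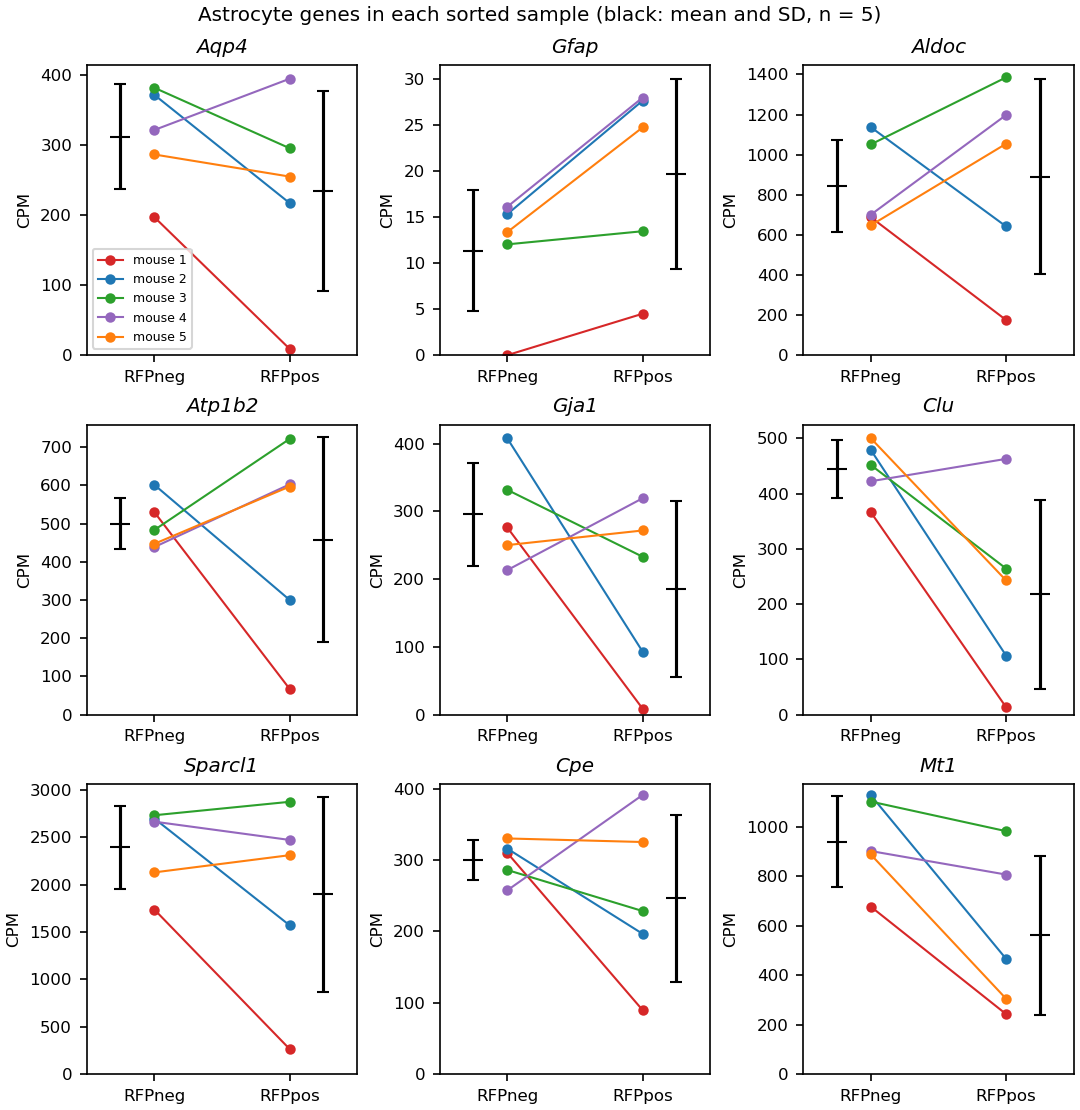
Level of each member in counts per 1000000 counts on genes (CPM, linear axis from 0) in RFPneg and RFPpos samples, with a line for each of the 5 mice and the mean and SD in black. The line of mouse 1 ends lowest in every panel, while the RFPpos samples of mice 3, 4 and 5 lie mostly at or near the RFPneg levels.

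*Aqp4*, the main water channel of astrocyte endfeet (ENSMUSG00000024411; GRCm38 chromosome 18, 15389496 to 15410982, minus strand), was at 197, 372, 382, 322 and 287 CPM in the RFPneg samples of mice 1 to 5 and at 8.99, 217, 296, 395 and 255 CPM in the RFPpos samples. It was lower in RFPpos cells in 4 of 5 mice, and only 2 counts were found in the RFPpos sample of mouse 1. The RFPpos levels of mice 2 to 5 overlapped the RFPneg levels. The means were 312 ± 74.9 CPM in RFPneg and 235 ± 142 CPM in RFPpos (SD, n = 5 each). edgeR gave *Aqp4* a log2 fold change of −0.61 ± 0.31 (standard error), which did not pass the test (adjusted p = 0.179), and −0.25 without mouse 1.

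*Gfap*, the intermediate filament protein that marks reactive and fibrous astrocytes (ENSMUSG00000020932; chromosome 11, 102887336 to 102900912, minus strand), gave 0, 3, 5, 4 and 4 counts in RFPneg and 1, 8, 3, 7 and 6 counts in RFPpos samples. The count of 0 in the RFPneg sample of mouse 1 allows up to 3 counts, or 16.9 CPM, which covers counting error only and is no lower than the levels of the other RFPneg samples. In CPM the RFPpos sample was the higher in 5 of 5 mice, but the groups overlapped. Tested with the 12270 genes that had at least 10 counts, *Gfap* had an edgeR log2 fold change of 0.81, with a 95% interval from −0.70 to 2.33 (adjusted p = 0.635). A difference was not detectable at this depth, with 16 counts in RFPneg and 25 in RFPpos cells.

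*Aldoc*, the brain form of the glycolytic enzyme aldolase (ENSMUSG00000017390; chromosome 11, 78322968 to 78327781, plus strand), was at 688, 1137, 1051, 700.3 and 647 CPM in RFPneg and at 175, 642, 1385, 1198 and 1054 CPM in RFPpos samples. It was higher in RFPpos cells of mice 3, 4 and 5 and lower in those of mice 1 and 2. Its means of 845 ± 230 and 891 ± 485 CPM (SD, n = 5 each) differed by less than the spread between mice. For *Aldoc* the edgeR estimate was −0.12 on the log2 scale, with a 95% interval from −0.72 to 0.49 (adjusted p = 0.833), and it turned to 0.27 without mouse 1 and to 0.08 without mouse 2.

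*Atp1b2*, a beta subunit of the sodium pump that also serves as a glial adhesion molecule (ENSMUSG00000041329; chromosome 11, 69599736 to 69605942, minus strand), was higher in the RFPpos cells of 3 of 5 mice. It was at 530.2, 602, 483, 439 and 447 CPM in RFPneg and at 67.4, 300.3, 722, 603 and 597 CPM in RFPpos samples. As for *Aldoc*, mice 3, 4 and 5 had the higher level in RFPpos cells. Its edgeR estimate was −0.33 ± 0.33 (log2, standard error; adjusted p = 0.541) and 0.13 without mouse 1.

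*Gja1*, which encodes connexin 43, the gap junction protein that couples astrocytes (ENSMUSG00000050953; chromosome 10, 56377330 to 56402513, plus strand), was at 276, 408, 332, 213 and 250.3 CPM in RFPneg and at 8.99, 93.2, 233, 319 and 272 CPM in RFPpos samples. The RFPpos samples of mice 1 and 2 lay below all RFPneg samples. Those of mice 4 and 5 were above the RFPneg samples of the same mice. On the log2 scale the difference in edgeR was −0.87 ± 0.40 (standard error) at an adjusted p of 0.131, and it was −0.43 without mouse 1 and −0.56 without mouse 2. With a lower minimum count, which tested 12270 genes, the adjusted p was 0.00885 for a log2 fold change of −0.81.

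*Clu* encodes clusterin, a secreted chaperone and apolipoprotein (ENSMUSG00000022037; chromosome 14, 65968483 to 65981547, plus strand). Its levels were 367, 479, 452, 423 and 500.5 CPM in RFPneg and 13.5, 107, 265, 463 and 243 CPM in RFPpos samples. The RFPneg samples were close together, at 444 ± 52.3 CPM, whereas the RFPpos samples were spread over 218 ± 171 CPM (SD, n = 5 each). *Clu* was lower in RFPpos cells in 4 of 5 mice, and the RFPpos sample of mouse 4 lay within the RFPneg range. In edgeR, *Clu* fell by 1.31 on the log2 scale, with a standard error of 0.35 (adjusted p = 0.00992). The fold change was −0.91 without mouse 1, under the fold threshold, and −1.11 without mouse 2 with an adjusted p of 0.0616 (edgeR). With DESeq2's Wald test the fold change was −1.57 and the adjusted p 0.0840, and without the mouse as a block they were −1.06 and 0.0608 in edgeR, with a range from 1.20e-06 to 0.0840 over the 15 alternatives tried.

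*Sparcl1* encodes hevin, a matricellular protein that astrocytes secrete at synapses (ENSMUSG00000029309; chromosome 5, 104079111 to 104113733, minus strand). It gave the most counts of the members, 5608 in all, and its levels were 1737, 2698, 2732, 2664 and 2129 CPM in RFPneg and 265, 1571, 2874, 2471 and 2311 CPM in RFPpos samples. The RFPpos samples of mice 3, 4 and 5 lay within or just above the RFPneg range, and those of mice 1 and 2 below it. *Sparcl1* had an edgeR estimate of −0.61 ± 0.28 (log2, standard error; adjusted p = 0.141), and of −0.17 without mouse 1. The gene *Gm26703* on the opposite strand had 17 counts, and those opposite *Aqp4* and *Gfap* had 0 counts.

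*Cpe*, the carboxypeptidase that trims peptide precursors in secretory granules (ENSMUSG00000037852; chromosome 8, 64592542 to 64693054, minus strand), was at 310.2, 316, 286, 258 and 330.4 CPM in RFPneg and at 89.9, 197, 229, 391 and 325 CPM in RFPpos samples. It was lower in RFPpos cells in 4 of 5 mice and highest of all 10 samples in the RFPpos cells of mouse 4. The estimate for *Cpe* in edgeR was −0.38 ± 0.24 (log2, standard error), with an adjusted p of 0.311, and −0.10 without mouse 1.

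*Mt1*, a small cysteine-rich protein that binds zinc and copper and is induced by metals, glucocorticoids and oxidative stress (ENSMUSG00000031765; chromosome 8, 94179082 to 94180327, plus strand), was the only member lower in the RFPpos cells of 5 of 5 mice. Its levels were 677, 1127, 1101, 902 and 888 CPM in RFPneg and 243, 466, 982, 806 and 305 CPM in RFPpos samples. The samples of mice 3 and 4 differed little, while mice 1, 2 and 5 had RFPpos levels below every RFPneg sample. *Mt1* fell by 0.90 on the log2 scale in edgeR, with a standard error of 0.21 (adjusted p = 0.00400). The adjusted p lay between 0.0104 and 0.0358 without mouse 1, 2 or 5 (edgeR) and was 0.0467 without the mouse as a block.

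The neighbouring gene *Mt2*, which encodes the sister protein of *Mt1*, fell by 0.73 on the log2 scale (adjusted p = 0.0324 from edgeR) and was lower in RFPpos cells in 4 of 5 mice. The stretches upstream of the starts that RefSeq annotates for both genes are shown because both genes passed the adjusted p threshold together. Capitals mark matches to TGCACNC or TGCGCNC on either strand, 2 forms of the metal response element to which the zinc sensor MTF-1 binds. The windows lie on the plus strand of GRCm38.p6 at chr8:94178839-94179088 for *Mt1* and chr8:94172368-94172617 for *Mt2*.
Mt1: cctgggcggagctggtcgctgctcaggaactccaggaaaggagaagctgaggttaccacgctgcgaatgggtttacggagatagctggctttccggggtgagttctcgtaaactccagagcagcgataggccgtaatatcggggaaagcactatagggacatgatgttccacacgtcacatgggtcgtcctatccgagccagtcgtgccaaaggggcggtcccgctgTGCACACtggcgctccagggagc
Mt2: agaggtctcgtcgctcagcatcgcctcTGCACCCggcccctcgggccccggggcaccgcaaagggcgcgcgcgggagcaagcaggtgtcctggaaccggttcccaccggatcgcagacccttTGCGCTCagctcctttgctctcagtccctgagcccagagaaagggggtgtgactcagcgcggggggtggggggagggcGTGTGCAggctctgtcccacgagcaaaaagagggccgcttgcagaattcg
The *Mt1* window held 1 match and the *Mt2* window 3 matches, none overlapping another. Of 32851 windows of 250 bases upstream of RefSeq starts, 21.4% held at least 1 match and 1.26% at least 3. The windows of *Gfap* and *Gja1* and both windows of *Aldoc* held 0 matches. No start other than those RefSeq annotates was searched for these genes, *Mt1* and *Mt2* included. Bases outside the windows, such as those after the starts, were not searched. The matches therefore need not be a full count for the promoter of any of these genes. Binding was not measured.

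**Figure D2:**
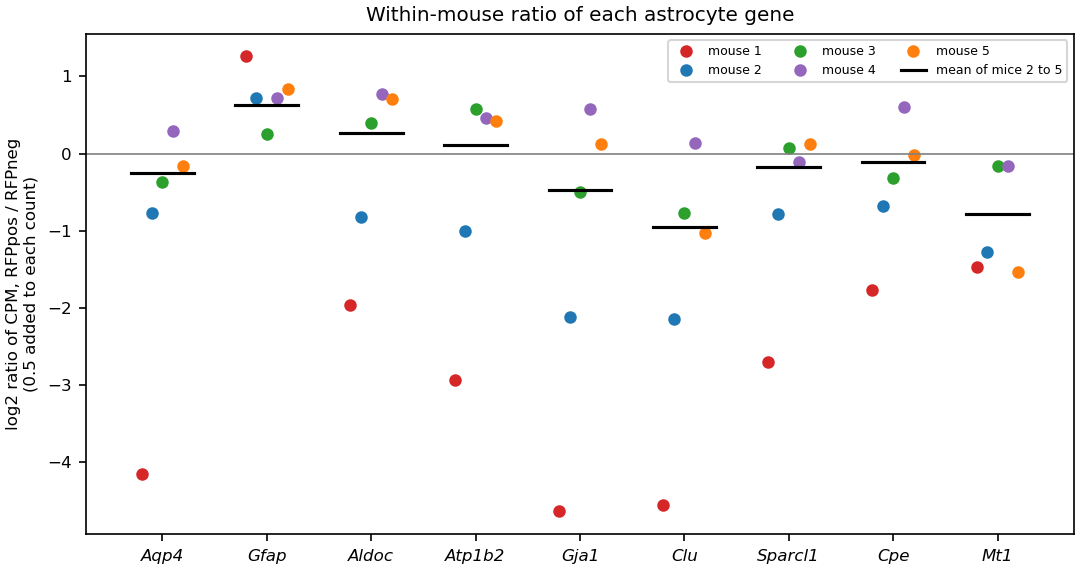
Log2 ratio of CPM between the RFPpos and the RFPneg sample of each mouse for each member, with 0.5 added to each count and a bar at the mean of mice 2 to 5. Mouse 1 has the lowest ratio for 7 of the 9 members, and mouse 2 the next lowest for each of these 7.

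Within mice, the members' log2 ratios of RFPpos to RFPneg cells were lowest in mouse 1 and next lowest in mouse 2 for every member except *Gfap* and *Mt1*. For *Aqp4*, *Gja1* and *Clu* the ratio in mouse 1 was −4.16, −4.64 and −4.55, and for *Sparcl1*, *Atp1b2* and *Aldoc* it was −2.70, −2.94 and −1.96. In mouse 4 all members but *Sparcl1* and *Mt1* had a ratio above 0, from 0.13 for *Clu* to 0.77 for *Aldoc*. Over mice 2 to 5 the mean ratio was between −0.48 and 0.63 for each restricted member. It was −0.95 ± 0.94 for *Clu* and −0.78 ± 0.72 for *Mt1* (SD, n = 4). Over all 5 mice the SD exceeded the size of the mean ratio for every member except *Gfap* and *Mt1*. An exact permutation within mice gave its smallest possible p, 0.0625, for *Mt1*, lower in RFPpos cells, and for *Gfap*, higher in them. For *Gfap* this rests on mouse 1, where 1 count against 0 does not fix the direction. The exact permutation p was 0.125 for *Clu* and between 0.188 and 0.750 for the other members, and so none passed 0.05.

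The 9 members were then summed as a share of the counts on genes in each sample. In the RFPneg samples of mice 1 to 5 it was 0.478%, 0.715%, 0.683%, 0.594% and 0.549% of the counts. In the RFPpos samples it was 0.0876%, 0.362%, 0.700%, 0.668% and 0.539%. The RFPpos samples of mice 3, 4 and 5 were within the RFPneg range and those of mice 1 and 2 below it. The mean log2 ratio was −0.65 ± 1.10 (SD, n = 5), and −0.20 ± 0.53 (SD, n = 4) without mouse 1. It was above 0 in 2 of 5 mice, and its SD exceeded its size. For the 5 restricted members the mean log2 ratio was −0.48 ± 1.37 (SD, n = 5), with a ratio above 0 in mice 3, 4 and 5, and 0.064 ± 0.71 without mouse 1. The 4 shared members had −0.74 ± 0.97 (SD, n = 5) and were lower in RFPpos cells of all 5 mice, with log2 ratios from −2.34 to −0.039, and had −0.34 ± 0.44 (SD, n = 4) without mouse 1. The ratio of the shared to the restricted members differed between the populations by −0.26 ± 0.43 on the log2 scale (SD, n = 5), and by −0.41 ± 0.32 without mouse 1, where it exceeded its SD.

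**Figure D3:**
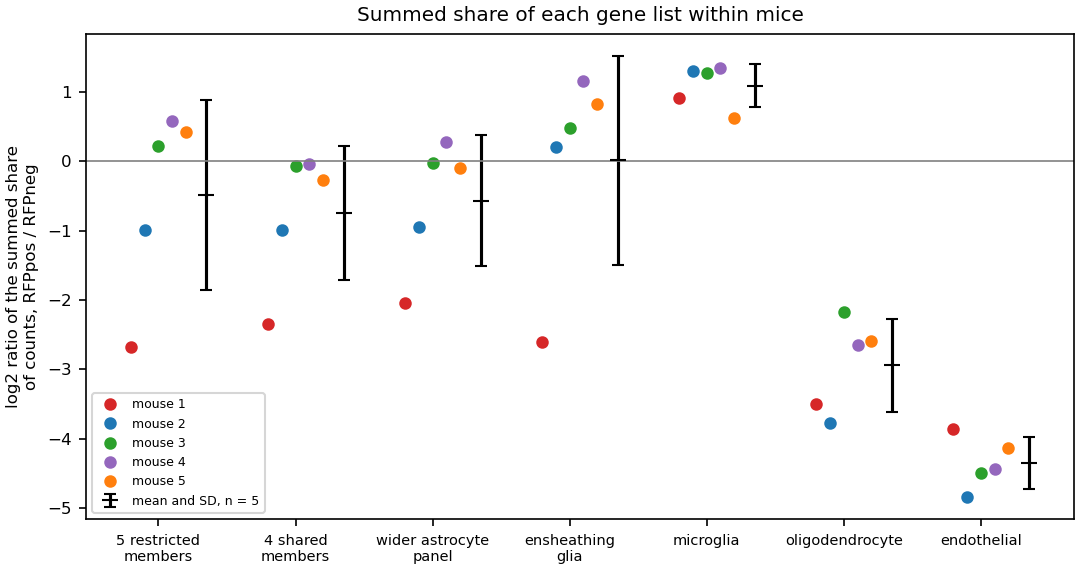
Log2 ratio of the summed share of counts between the RFPpos and RFPneg sample of each mouse for 7 gene lists, with the mean and SD (n = 5) in black. The astrocyte lists scatter around 0 for mice 3, 4 and 5 and fall to between −2.67 and −2.04 in mouse 1, whereas the endothelial list lies between −4.84 and −3.86 in every mouse.

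The members' ratios were set beside those of markers of other cell types in the same mice. The endothelial list of 20 genes, such as the transporter gene *Slco1a4*, had a mean log2 ratio of −4.36 ± 0.37, and the oligodendrocyte list of 14 genes, such as the myelin gene *Cldn11*, had −2.94 ± 0.67 (SD, n = 5 each). Relative to the endothelial list, the members' summed share was higher by 3.70 ± 1.32 in RFPpos cells on the log2 scale, in 5 of 5 mice. Relative to the oligodendrocyte list it was higher by 2.29 ± 0.73, also in 5 of 5 mice. Relative to the microglia list, whose mean log2 ratio was 1.09 ± 0.31, it was lower by 1.75 ± 1.08 in RFPpos cells of all 5 mice. Each of these 3 differences exceeded its SD over mice. Without mouse 1 the differences from the endothelial, oligodendrocyte and microglia lists were 4.28 ± 0.36, 2.60 ± 0.28 and −1.34 ± 0.68 (SD, n = 4). These ratios do not depend on how the libraries were scaled, and the marker lists were chosen with earlier results of these samples known.

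The RFPpos sample of mouse 1 also stood apart in other lists. It had the highest microglia share of all 10 samples, 4.28%. A list of 9 ensheathing glia and glial progenitor genes took 0.0189% of its counts, compared with 0.196% to 0.276% in the RFPpos samples of mice 2 to 5. The endothelial share was 0.0184%, the lowest of all samples. Of the 43 tested genes of the wider astrocyte panel, 40 had their lowest CPM in this sample, while the share over all 4210 tested genes was 20.9%. The sample had 222560 counts on genes and 10396 detected genes, and the RFPpos sample of mouse 5 had 10308 detected genes. The part of these differences in the members' results was not tested.

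The makeup of the astrocyte counts was then compared. These shares depend on one another, since a larger share of a member leaves less for the others. *Aldoc* took 14.4%, 15.9%, 15.4%, 11.8% and 11.8% of the counts of the 9 members in RFPneg samples and 20%, 17.7%, 19.8%, 17.9% and 19.6% in RFPpos samples, and the groups did not overlap. *Clu* took 6.62% to 9.11% in RFPneg and 1.54% to 6.94% in RFPpos samples, with the RFPpos sample the lower in 5 of 5 mice. *Sparcl1* kept the largest part, 36.3% to 44.9% in RFPneg and 30.3% to 43.4% in RFPpos samples. *Mt1* took 14.2% to 16.2% in RFPneg samples, but 27.7% in the RFPpos sample of mouse 1 and 5.66% in that of mouse 5.

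**Figure D4:**
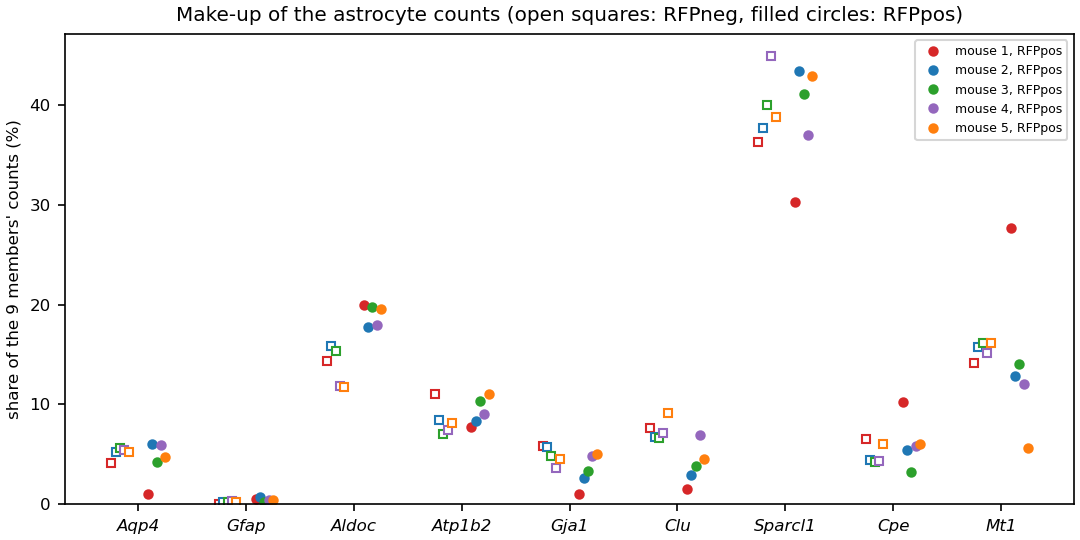
Share of the counts of the 9 members that falls on each of them (percent), with open squares for RFPneg and filled circles for RFPpos samples, coloured by mouse. *Aldoc* lies at 17.7% to 20% in RFPpos and 11.8% to 15.9% in RFPneg samples, and *Clu* is lower in the RFPpos sample of each mouse.

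Each member was also set against the sum of the other restricted members in the same sample, in 9 comparisons. These comparisons are not independent, since *Aldoc* gave the most counts of the restricted members and is part of the sum for the others. A higher *Aldoc* and a lower *Gja1*, *Clu* or *Aqp4* are thus in part the same contrast. *Aldoc* was higher in RFPpos cells by 0.59 ± 0.51 on the log2 scale (SD, n = 5), in 5 of 5 mice, and by 0.37 ± 0.09 over mice 2 to 5. *Clu* was lower by 1.19 ± 0.53 and *Gja1* by 0.93 ± 0.85 in all 5 mice, and *Gfap* was higher by 1.25 ± 1.65 in all 5. Over mice 2 to 5, *Clu*, *Gja1* and *Gfap* were at −1.02 ± 0.42, −0.61 ± 0.55 and 0.57 ± 0.78 (SD, n = 4), and the *Gfap* value of mouse 1, 3.95, rested on 1 count against 0. Over all 5 mice the SD exceeded the mean for *Gfap*, and for *Aldoc* and *Gja1* it was nearly as large as the mean. *Atp1b2*, *Cpe* and *Sparcl1* had mean differences smaller than their SD, −0.03 ± 0.31, 0.045 ± 0.59 and −0.20 ± 0.34. *Aqp4* also differed by less than its SD, by −0.62 ± 0.68, and was lower in 4 of 5 mice. Without mouse 1, *Aqp4* was at −0.37 ± 0.44 and *Cpe* at −0.17 ± 0.40 (SD, n = 4). *Mt1* was at 1.19 in mouse 1 and between −1.96 and −0.29 in the others.

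A wider panel of 50 genes known for astrocytes was examined in the same fit. Of the 43 that were tested, 9 were called lower (beside 9.14% of all tested genes) and 0 higher, and 15 were lower and 0 higher at an adjusted p under 0.05 (beside 11.6% and 10.1%). The median log2 fold change of the panel was −0.70, compared with −0.03 over all tested genes. Its summed share had a mean log2 ratio of −0.57 ± 0.94 (SD, n = 5), with a ratio above 0 in 1 of 5 mice. Without mouse 1 the mean ratio was −0.20 ± 0.53 (SD, n = 4). Of the genes called, *Nfib*, a transcription factor of glial development, was at 361 ± 78.3 CPM in RFPneg and 151 ± 88.1 CPM in RFPpos cells (SD, n = 5 each), and it fell by 1.40 on the log2 scale (adjusted p = 4.95e-04 in edgeR). *Slc6a11*, the GABA transporter GAT-3, fell by 1.65 on the log2 scale, *Acsl6*, a long-chain acyl-CoA synthetase, by 1.51 and *Bcan*, a proteoglycan of the brain matrix, by 1.47. Each of these 4 genes was lower in RFPpos cells in 5 of 5 mice. A few other panel genes are named here after their values were seen. The glutamate transporter gene *Slc1a3* was at 0.23 on the log2 fold scale (adjusted p = 0.599), while another glutamate transporter gene, *Slc1a2*, fell by 0.76 (adjusted p = 0.0148, both in edgeR). Without mouse 1 and without mouse 2, the number of panel genes called lower was 5 in each case. Over all tested genes it was 409 of 4455 without mouse 1 and 306 of 4206 without mouse 2.

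**Figure D5:**
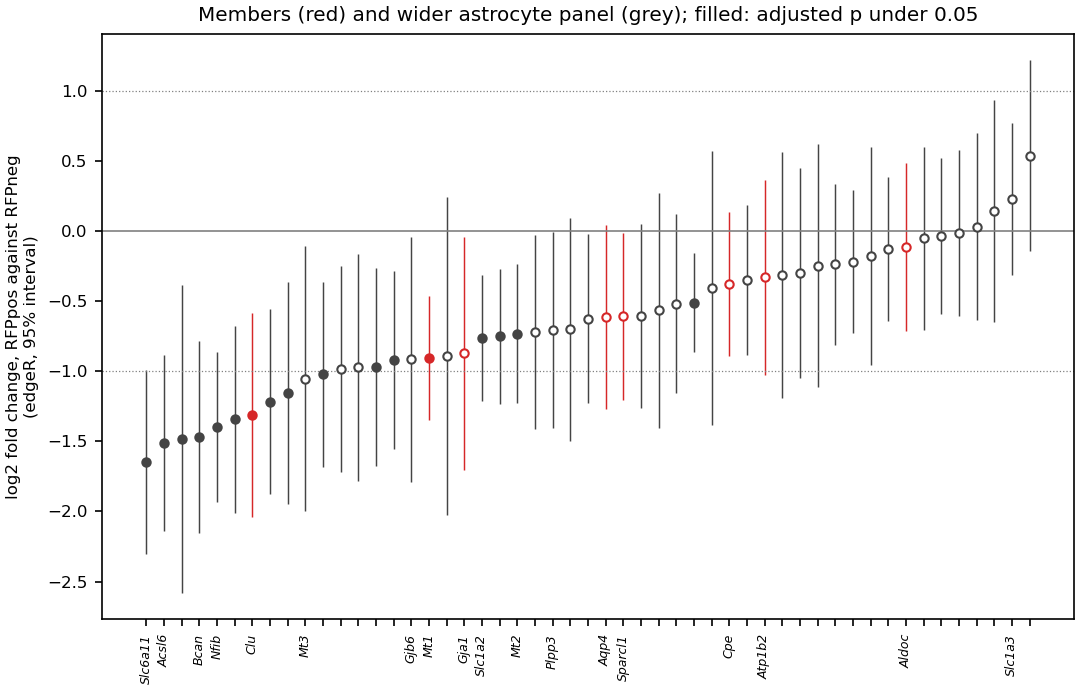
Log2 fold change of RFPpos against RFPneg cells with its 95% interval (edgeR) for the 8 tested members (red) and the 43 tested panel genes (grey), ordered by size, with names for the members and the panel genes given in the text, filled points at an adjusted p under 0.05 and dotted lines at −1 and 1. *Clu* and *Mt1* are the filled red points, and *Aldoc* lies near the upper end, at −0.12.

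The genes around each member were examined by family, among the 4210 genes tested and among the 12270 with at least 10 counts (the wider fit), where 6.75% of genes were called lower and 2.80% higher. Of 17 genes that anchor the water channel or build the endfoot, 9 were tested and 0 were called (beside 14.9% of all tested genes) or passed the adjusted p alone (beside 21.8%), and in the wider fit 1 of 15 was lower at the adjusted p alone (beside 7.49%) and 0 were called in edgeR. Of the 9, 4 had an unadjusted edgeR p under 0.05 (beside 33.0% of all tested genes), and the median log2 fold change was −0.41. The summed share of the 17 genes had a mean log2 ratio of −0.38 ± 0.62 (SD, n = 5), and of −0.16 ± 0.43 (SD, n = 4) without mouse 1. Of the 11 other sodium pump genes, 6 were tested and only *Fxyd5* was called, lower by 3.28 (adjusted p = 5.34e-04 from edgeR; 1 of 6, beside 9.14% of all tested genes), while the beta subunit genes *Atp1b1* and *Atp1b3* were at −0.37 and −0.14 on the log2 scale, at adjusted p-values of 0.410 and 0.692. *Gjb6*, which encodes another astrocyte connexin, connexin 30, had −0.92 (adjusted p = 0.131). In the wider fit, 3 of 7 connexin genes other than *Gja1* were called lower, among them *Gjc1*, known from vascular cells, and *Gjb1*, known from oligodendrocytes. *Aldoa*, the aldolase of most tissues, had −0.19 (adjusted p = 0.690). Of 2 tested relatives of *Sparcl1*, *Sparc* was higher in RFPpos cells in 5 of 5 mice, by 0.83 on the log2 scale (adjusted p = 0.00102 from edgeR), and *Spock2* was called lower, by 3.34 (1 of 2, beside 9.14%). In the wider fit, *Spock1*, *Spock2* and *Spock3* were called lower, 3 of 6 relatives. Of the genes that process or store peptide precursors as *Cpe* does, 2 were tested, and *Cpd*, another carboxypeptidase gene, was called lower, by 1.08 (adjusted p = 0.0196 from edgeR), while *Furin* was at −0.22 (adjusted p = 0.794). In the wider fit 5 of 10 were called lower and 0 higher, and the summed share of the list had a mean log2 ratio of −1.33 ± 0.13 (SD, n = 5), lower in RFPpos cells in 5 of 5 mice. A list of 14 neuron genes had −1.66 ± 1.13 (SD, n = 5) and was also lower in 5 of 5 mice. The part of neurons in these values was not tested.

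Among 3 tested clusterin receptors, *Lrp1* was called higher (1 of 3, beside 5.75% of all tested genes), with 246 ± 46.8 CPM in RFPneg and 500.0 ± 64.6 CPM in RFPpos cells (SD, n = 5 each). In the wider fit, where 5 receptors were tested, *Lrp1* was again called higher (1 of 5, beside 2.80%). The microglia list had a mean log2 ratio of 1.09 ± 0.31 (SD, n = 5). The part of microglia in the values of *Lrp1* and *Sparc* was not tested. *Vldlr* was called lower there (1 of 5, beside 6.75%), with 38 counts in RFPneg and 4 in RFPpos samples (log2 fold change −3.33, edgeR adjusted p = 0.00623). *Vim*, the filament partner of *Gfap*, fell by 1.59 (adjusted p = 0.00363), and *Cp*, which encodes ceruloplasmin, fell by 2.85 (adjusted p = 5.20e-06). Of 25 reactive astrocyte genes, 6 were tested, with *Vim* and *Cp* called lower (beside 9.14% of all tested genes) and 0 called higher, and their median was −0.27. *Srgn* fell by 0.73 (adjusted p = 0.0165), while *Serpina3n*, *Stat3* and *Psmb8* were at 0.96, 0.28 and 0.19 at adjusted p-values of 0.191, 0.467 and 0.733 (edgeR). In the wider fit, 18 of the 25 were tested and 6 were called lower (beside 6.75%) and 0 higher, among them *Lcn2*, which encodes the iron-carrier protein lipocalin 2 and had 83 counts in RFPneg and 2 in RFPpos samples, and *Hspb1*, a small heat shock protein gene with 79 and 3 counts. The summed share of the list had a mean log2 ratio of −0.85 ± 0.11 (SD, n = 5) and was lower in RFPpos cells in 5 of 5 mice. *Vim* and *Cp* are also known from endothelial or other vascular cells, and the endothelial share was lower in RFPpos cells in 5 of 5 mice. The part of vascular cells in these values was not tested.

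Genes that handle zinc were examined beside *Mt1*. Of 10 metallothionein and zinc handling genes other than *Mt1*, 5 were tested, and *Slc30a1*, *Slc39a10* and *Slc39a12* were called lower (3 of 5, beside 9.14% of all tested genes). Among the genes with at least 10 counts, 2 of 9 were called lower (beside 6.75%). *Slc30a1*, the zinc exporter of the cell membrane, had 183 ± 70.6 CPM in RFPneg and 45.5 ± 21.3 CPM in RFPpos cells (SD, n = 5 each), which is −2.0 as a log2 fold change (edgeR adjusted p of 6.17e-05). The zinc importer genes *Slc39a10* and *Slc39a12* fell by 1.69 and 1.07. The brain metallothionein *Mt3* had −1.05, with an adjusted p of 0.106. Endothelial cells also express *Mt1*, *Mt2* and zinc transporters, and their share was lower in RFPpos cells in 5 of 5 mice. Its part in these values was not tested.

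The levels of *Aqp4*, *Aldoc*, *Atp1b2* and *Gja1* were averaged as standardized log2 CPM over the 10 samples, and the 10 tested genes most like this profile were found. Among them were *Enah*, *Plpp3*, *Lrig1*, *Gabrb1*, *Dtna*, *2310022B05Rik*, *Tril*, *Tmem47* and *Slc7a11*, with Pearson correlations from 0.986 to 0.966, of which *Plpp3* belongs to the panel. The samples share mice and the profile is led by the RFPpos sample of mouse 1, and without that sample the correlations of these genes lay between 0.658 and 0.888. Of the members outside the profile, *Sparcl1* had 0.983, *Clu* 0.932, *Cpe* 0.918 and *Mt1* 0.737, and without that sample they had 0.826, 0.636, 0.565 and 0.465. These correlations were used for selection and description, with no test.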

How the data were processed

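The authors deposited raw counts per gene for 10 bulk samples. They sorted cells from individual brains, made libraries with the QuantSeq FWD kit of Lexogen and ran Lexogen's pipeline for reads with molecular identifiers. The genome build of the bulk counts and their strand setting are not given in the sources used here. Reads on no gene, 32.1% to 37.2% of the table's counts in RFPneg and 38.4% to 48.6% in RFPpos samples, were left out of library sizes and tests. The depth was 177287 to 415834 counts on genes.

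Counts were tested with edgeR 4.0.16 in R 4.3.3 by the quasi-likelihood test with TMM scaling and the mouse as a block, after filterByExpr with a minimum count of 10 and a minimum total of 15, which left 4210 genes. Adjusted p-values are Benjamini-Hochberg values over all tested genes. *Gfap* was tested among 12270 genes with at least 10 counts in all. In simulated counts of 4100 genes for this comparison, 82 of 83 genes changed by 4-fold and 48 of 96 changed by 2-fold had an adjusted p under 0.05. So did 4 of 3921 unchanged genes. The fold threshold was not applied to the simulated counts. CPM are counts per 1000000 counts on genes. Within-mouse ratios of single genes, also those against the sum of other members, had 0.5 counts added. Ratios of the summed shares reported here had none added. An exact, two-sided permutation within mice was run for each member, and 5 pairs give it a p no lower than 0.0625. Summed shares and their differences are given with no test, since the members were chosen with results known. Samples were grouped by their labels, and pairs are the samples of 1 mouse, as the labels and methods give them. Deviations of the paired samples from their group means correlated by 0.22, −0.04, 0.14, −0.01 and 0.01 across genes.

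Genes named beside the members were the 4 called genes with the smallest p of the wider panel, the relatives of each member and the 10 genes most like the restricted members, of which some are not reported here. The members and lists were chosen with earlier results of these data known. Gene positions are from GENCODE M21 for GRCm38 and upstream windows from RefSeq for GRCm38.p6. Alternatives were other scalings, filters and tests (DESeq2 1.42.0, limma 3.58.1), the fit without the block, and each mouse left out. The single-cell samples were not used here.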

Additional observations from a re-analysis of the deposited data

Results flagged for a closer look

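In groups of 5 values, 1 value was set against the other 4 for 51 quantities, of which about 2.55 would be picked out by chance, and 3 were. The log2 ratio of *Aqp4* between RFPpos and RFPneg cells was −4.16 in mouse 1, far below the −0.77 to 0.29 of the other mice. The level of *Gfap* was 0 CPM in the RFPneg sample of mouse 1, while the other RFPneg samples lay between 12.02 and 16.1 CPM, and a count of 0 in that library allows up to 16.9 CPM. The log2 ratio of the ensheathing glia and glial progenitor list was −2.60 in mouse 1 and between 0.20 and 1.16 in the other mice.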

How the results depend on the processing

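The number of called genes was 1090 among all genes with at least 1 count and 1171 among those with at least 10, with 770 and 828 lower. With reads on no gene in the library sizes 149 genes were higher, and at an adjusted p alone 427. Of the members, 2 were called lower with reads on no gene in the library sizes and 2 at an adjusted p alone, 0 with DESeq2's Wald test, 0 without the mouse as a block, and from 0 to 2 with 1 mouse left out (0 without mouse 1 or 2, 2 without mouse 3 or 4). Of the panel, 15 genes were lower at an adjusted p alone and from 5 to 12 with 1 mouse left out. Over all tested genes these numbers were 489 and from 306 to 409. The log2 fold change of *Aldoc* turned to 0.045 without the mouse as a block and ranged from −0.35 to 0.27 with 1 mouse left out, turning to 0.27 without mouse 1 and 0.08 without mouse 2, and that of *Atp1b2* ranged from −0.58 to 0.13, turning to 0.13 without mouse 1. The log2 ratio of the restricted members ranged from −0.75 to 0.064 and was above 0 only without mouse 1. *Aqp4*, *Gja1*, *Clu*, *Sparcl1*, *Cpe* and *Mt1* kept a negative fold change under all 15 alternatives. The differences of the members from the endothelial, oligodendrocyte and microglia lists (3.70, 2.29 and −1.75) are mean differences that are the same with and without the mouse pairing by construction. The causes were not tested. Depth limits *Gfap* most, with 41 counts in all.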
